A study of Homo sapiens with 9 samples.

Results

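The promoter of KRT80, a type II keratin gene on the minus strand of chromosome 12, was 1 of 20 promoters whose contacts were measured by Capture-C, a chromosome conformation capture assay in which DpnII-digested, re-ligated chromatin is enriched with probes for chosen promoters. The contacts described here are the DpnII fragments on chromosome 12 that lie within 500 kb of the KRT80 start site (position 52192014, hg38, GENCODE 44), which number 2500 of the 738950 fragments listed for this promoter and of the 11339756 listed for all 20. The cells were HCT-116, a human colorectal carcinoma line, in which the Mediator subunit MED14 carries a dTAG degron, so that a small ligand leads to its degradation. All 9 libraries carry this tag. The groups were dTAG+I-BET (0.5 μM dTAG ligand for 2 h and 1 μM of the BET bromodomain inhibitor I-BET for 90 min), dTAG (0.5 μM ligand for 2 h) and DMSO (vehicle), with 3 libraries each. The study picked the 20 genes because they are active in these cells, lie near super-enhancers, have much Mediator at their promoters and lose expression without Mediator, so that KRT80 is no random sample of promoters. The study calls the replicates biologically independent, but each replicate number in the column names follows the unexplained abbreviation TR. The n of 3 thus rests on the study's statement, and the p-values below measure only the spread between these libraries, which may be technical. Levels are signal per kb, the deposited signal summed over the fragments of a region and divided by the length of the region. The signal is scaled, and 1 recovered interaction of the KRT80 promoter is worth 20.1 to 34.7 units of signal, depending on the library. Numbers of interactions are named as such below, and every level given per kb is signal. Upstream and downstream refer to the direction of KRT80 transcription.

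Keratins are the intermediate filament proteins of epithelial cells, and each filament pairs a type I with a type II chain. The human type II genes stand side by side in 1 cluster, and KRT80 lies at its edge, next to KRT7. Upstream of KRT80 follow KRT7, a keratin of simple epithelia such as ducts, then the hair keratins KRT86, KRT81, KRT83, KRT85, KRT84 and KRT82, then KRT75 of the hair follicle, the KRT6 genes and KRT5 of stratified epithelia, the root sheath keratins KRT71, KRT74, KRT72 and KRT73, and the epidermal KRT2, KRT1 and KRT77. Downstream lie genes of other families, among them NR4A1, which encodes an orphan nuclear receptor, ATG101, an autophagy initiation factor, the TGF-beta family receptors ACVR1B and ACVRL1, and the sodium channel gene SCN8A. Mediator bridges transcription factors at enhancers and RNA polymerase II at promoters, BET proteins bind acetylated histones, and cohesin extrudes chromatin loops.

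Among the fragments more than 50 kb away that held a mean of at least 10 interactions per library, the 5 with the highest signal per kb all lay upstream, as did 235 of the 259 fragments that met this minimum. They lay between 50.6 and 110.3 kb from KRT80, in introns of KRT7 and KRT86 or in exons of keratin pseudogenes inside KRT86. The first 3 are shown because they had the highest values per kb, on the plus strand of hg38 and with the DpnII recognition letters on either side in capitals. The KRT87P fragment spans chr12:52253667-52253763, the KRT7 intron fragment chr12:52242502-52242638 and the KRT88P fragment chr12:52266548-52266644.
KRT87P exon fragment: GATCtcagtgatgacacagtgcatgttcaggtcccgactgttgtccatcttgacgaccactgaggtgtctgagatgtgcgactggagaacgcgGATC
KRT7 intron fragment: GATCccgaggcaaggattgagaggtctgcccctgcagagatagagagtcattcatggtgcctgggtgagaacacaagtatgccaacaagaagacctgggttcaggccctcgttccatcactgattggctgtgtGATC
KRT88P exon fragment: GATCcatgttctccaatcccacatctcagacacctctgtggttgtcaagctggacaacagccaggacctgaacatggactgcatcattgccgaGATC
Read on the opposite strand, the KRT87P fragment matched the KRT88P fragment at 83.1% of its 89 bases without gaps. Fragments of the same 89 bases also lay in exons of KRT86, KRT85 and KRT83, with 87.6%, 85.4% and 84.3% identity to the KRT87P copy, and the next fragment of this length in the region reached 37.1%. These are copies of 1 keratin exon, and whether reads of 1 copy were placed on another was not tested.

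Cohesin-lost sites are stretches of 401 bases where the study's CUT&Tag table lists less SMC1A, a cohesin subunit, after dTAG treatment. They were defined on other libraries than those used here. There were 6 within 10 to 500 kb of KRT80, all of them upstream, at 30.1, 38.5, 154, 249, 251 and 305 kb. Of the 6 sites 4 hold the AP-1 letters TGANTCA in their central 300 bases, that at 38.5 kb among them. The central 300 bases of the 3 others follow, with these letters in capitals (searched on both strands, which read alike). They span chr12:52221932-52222231 (in an exon of LINC00592), chr12:52345803-52346102 (in an intron of the pseudogene KRT89P) and chr12:52441258-52441557 (between genes, beyond KRT75).
Site at 30.1 kb: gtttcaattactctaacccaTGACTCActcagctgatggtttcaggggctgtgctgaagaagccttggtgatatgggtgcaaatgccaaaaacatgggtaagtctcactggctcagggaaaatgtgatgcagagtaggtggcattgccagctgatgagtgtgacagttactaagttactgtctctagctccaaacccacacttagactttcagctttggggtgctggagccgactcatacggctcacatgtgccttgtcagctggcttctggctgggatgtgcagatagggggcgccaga
Site at 154 kb: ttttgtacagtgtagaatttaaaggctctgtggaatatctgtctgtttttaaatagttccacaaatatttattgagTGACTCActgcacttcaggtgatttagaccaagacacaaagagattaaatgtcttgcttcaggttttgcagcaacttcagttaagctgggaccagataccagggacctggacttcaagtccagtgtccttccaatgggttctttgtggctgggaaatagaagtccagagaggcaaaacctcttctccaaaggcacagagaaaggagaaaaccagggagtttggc
Site at 249 kb: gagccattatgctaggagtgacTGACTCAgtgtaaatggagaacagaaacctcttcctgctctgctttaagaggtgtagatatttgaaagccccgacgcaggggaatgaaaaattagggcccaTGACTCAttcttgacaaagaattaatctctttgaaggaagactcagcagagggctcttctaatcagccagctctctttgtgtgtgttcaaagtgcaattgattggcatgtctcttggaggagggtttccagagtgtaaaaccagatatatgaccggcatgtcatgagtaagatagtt
The AP-1 letters were present in 4 of the 6 sites at KRT80, in 58.0% of the central 300 bases of all 881 cohesin-lost sites and in 7.74% of 3333 consecutive stretches of 300 bases around KRT80. A match is a string of letters and was not tested as a binding site.

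The KRT80 promoter had 27349 to 47135 interactions on chromosome 12 in a library, of which 11737 to 23205 lay 10 to 500 kb away. Interactions with other chromosomes made up 39.3% to 42.1% in 8 libraries and 47.0% in dTAG replicate 3, in which 42.0% of the chromosome 12 interactions lay 10 to 500 kb away, against 48.5% to 51.2% in the others. A chi-square comparison of the interactions per 10-kb bin gave 2.84 and 3.27 per bin between dTAG replicate 3 and the other dTAG libraries and 1.95 and 2.16 between DMSO replicate 3 and the other DMSO libraries. The remaining pairs within groups gave 1.07 to 1.35. A 10-kb bin held a median of 78 interactions in a library (3 to 1940), which gives a counting error of 0.16 on the log2 scale, and the 95% interval of a fitted ratio reached a median of 0.39 to either side.

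From 40 kb outward, mean contacts of the KRT80 promoter were higher on the side of the keratin cluster than on the other side. From 40 to 130 kb upstream, over KRT7, KRT86, KRT81 and KRT83, the means of the 9 bins stayed between 1090 and 1387 per kb, so that the profile did not fall there as it did nearer to the promoter. Downstream, the 9 bins over the same distances had means of 218 to 899 per kb. The upstream level then fell to 645 to 760 per kb from 140 to 180 kb, around KRT85, and to 375 to 489 per kb from 180 to 210 kb, around KRT84 and KRT82. From 250 to 500 kb, between KRT6B and KRT77, upstream bins had means of 114 to 307 per kb.

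**Figure D1:**
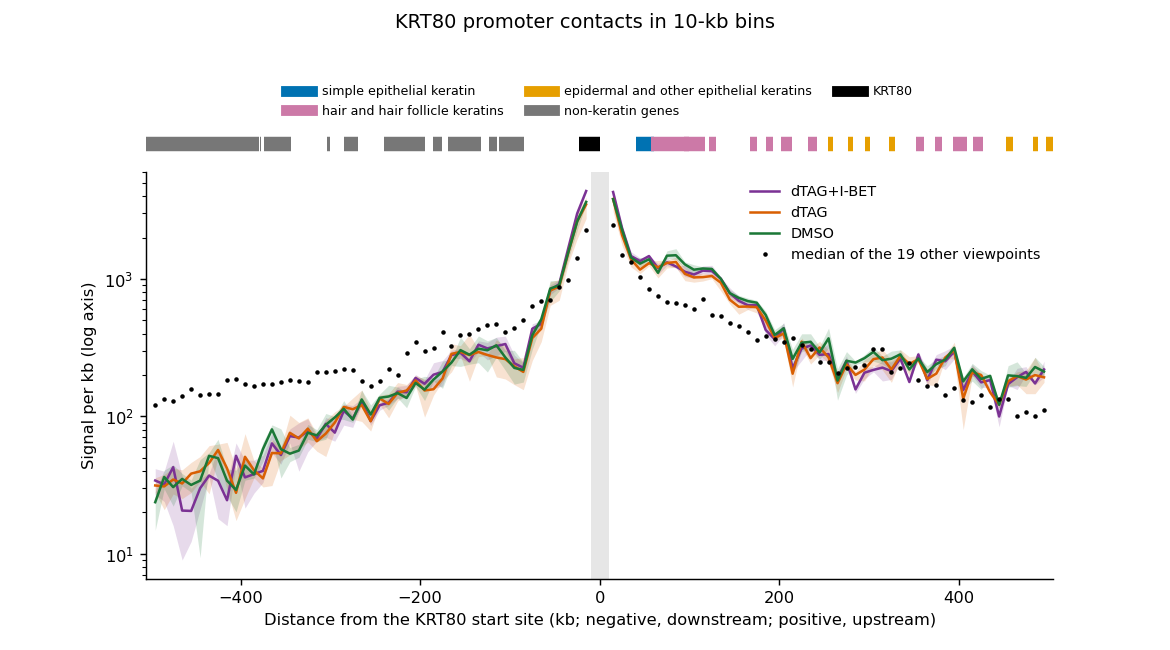
Signal per kb of the KRT80 promoter in 98 bins of 10 kb against distance from its start site, on a log axis, with lines for group means, shading from the lowest to the highest of 3 libraries, black points for the median of the 19 other viewpoints and bars above for genes. The upstream side stays between 1090 and 1387 per kb from 40 to 130 kb, where the downstream side is at 218 to 899 per kb.

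The 3 highest bins more than 50 kb upstream lay over KRT7 and KRT86. The bin at 50 to 60 kb had 1472, 1453 and 1477 per kb in dTAG+I-BET libraries, 1240, 1325 and 1344 per kb in dTAG libraries and 1413, 1312 and 1445 per kb in DMSO libraries. Its dTAG+I-BET values lay above those of both other groups, whose ranges overlapped. The bins at 70 to 80 and 80 to 90 kb averaged 1367 and 1349 per kb over all libraries. The 3 highest bins more than 50 kb downstream were those from 50 to 80 kb, with no gene in them, at means of 833, 471 and 398 per kb.

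Downstream contacts fell to 218 per kb at 80 to 90 kb, over SMIM41, and rose again to a low shoulder of 270 to 312 per kb from 100 to 170 kb, over SMIM41, ATG101 and NR4A1. They then declined to 129 to 182 per kb from 180 to 250 kb, over TAMALIN and ACVR1B, and to 29.3 to 46.7 per kb from 400 to 500 kb, over SCN8A. At 44 of 46 distances from 40 kb on, the upstream bin was above the downstream bin in all 9 libraries. The exceptions lay at 210 to 220 kb, over KRT82 (8 of 9 libraries), and at 260 to 270 kb, from the end of KRT6B toward KRT6C (7 of 9 libraries). Nearer than 40 kb the order differed, and at 20 to 30 kb the upstream bin was higher in 1 of 9 libraries.

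Within 10 to 500 kb the upstream side had 619, 629 and 622 per kb in dTAG+I-BET libraries, 622, 603 and 556 per kb in dTAG libraries and 656, 619 and 650 per kb in DMSO libraries. The downstream side had 341, 349 and 352 per kb in dTAG+I-BET libraries, 342, 338 and 257 per kb in dTAG libraries and 341, 335 and 288 per kb in DMSO libraries. The low downstream values were those of replicate 3 in the dTAG and DMSO groups. The upstream side thus held 63.9% to 69.3% of the signal of both sides. The log2 ratio of upstream over downstream averaged 0.84 ± 0.02 in dTAG+I-BET, 0.94 ± 0.15 in dTAG and 1.00 ± 0.15 in DMSO (SD, n = 3 each). Averaged over all libraries it was 0.93, which ranked KRT80 the third of the 20 promoters in upstream excess, and sixth in the size of the excess of either side.

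**Figure D2:**
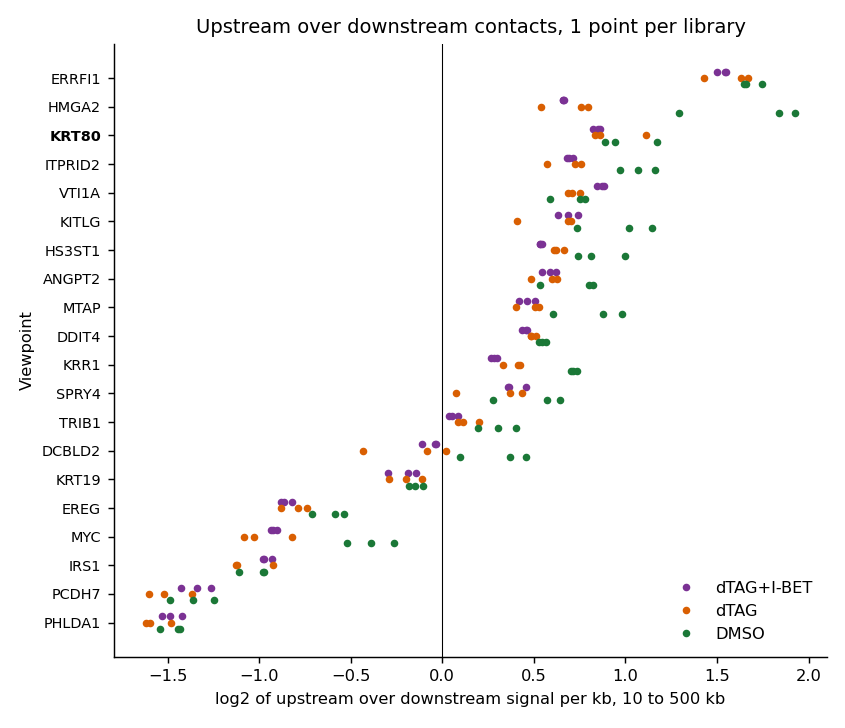
Log2 ratio of upstream over downstream signal per kb, 10 to 500 kb, for each of the 20 viewpoints (rows), 1 point per library. The 9 KRT80 libraries lie between 0.82 and 1.17, and the 3 dTAG+I-BET points at 0.82 to 0.86 overlap the dTAG points and lie below the DMSO points.

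Set against the 19 other promoters at equal distance and orientation, as a description, KRT80 had 1.82 times their median at 50 to 100 kb upstream (rank 3 of 20), 1.37 times at 100 to 250 kb (rank 6) and 1.04 times at 250 to 500 kb (rank 10), so that the far part of the keratin cluster was near the median. On the downstream side it had 0.69 times their median at 50 to 100 kb (rank 17), 0.66 times at 100 to 250 kb (rank 16) and 0.29 times at 250 to 500 kb (rank 19). Between 10 and 50 kb it ranked 1 upstream and 2 downstream.

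Each keratin gene was measured over its body, and KRT7 stood with the hair keratins nearest to it. KRT7, which is transcribed in simple epithelia, had 1340, 1361 and 1393 per kb in dTAG+I-BET libraries, 1214, 1188 and 1182 per kb in dTAG libraries and 1378, 1232 and 1309 per kb in DMSO libraries. The dTAG values lay below those of both other groups, which overlapped each other. In dTAG against DMSO the groups did not overlap in 7 of the 30 gene bodies around KRT80, against 24 of 173 over all viewpoints. In dTAG+I-BET against DMSO these counts were 4 of 30 and 49 of 173. In dTAG+I-BET against dTAG they were 6 of 30 and 33 of 173. KRT81, a cortex keratin and the highest of the hair list, had 1235, 1463 and 1152 per kb in dTAG+I-BET libraries, 1335, 1262 and 1123 per kb in dTAG libraries and 1356, 1300 and 1540 per kb in DMSO libraries, and the groups overlapped. The KRT86 body, which contains KRT81 and reaches into KRT7, and the KRT83 body had 1065 to 1364 and 1095 to 1361 per kb over the 9 libraries. Fragments shared by KRT86, KRT81 and KRT7 count for each of them.

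Beyond KRT83 the level per kb dropped in steps. KRT85, a hair matrix keratin, had 510 to 716 per kb over the 9 libraries, KRT84 439 to 614 and KRT82 339 to 445. KRT85 and KRT84 overlapped in range, whereas KRT83 lay above both in every library. KRT75 had 240 to 347 per kb. Of the root sheath keratins, KRT71 had 268 to 317 per kb, KRT74 185 to 311, KRT72 179 to 250 and KRT73 142 to 252, so that neighbours in this order overlapped. KRT71, more than 350 kb away, lay within the range of KRT75, which is nearer than 250 kb.

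KRT6B, a keratin of stratified and stressed epithelia, was the highest of the epidermal list, with 256, 381 and 273 per kb in dTAG+I-BET libraries, 272, 297 and 296 per kb in dTAG libraries and 447, 333 and 409 per kb in DMSO libraries. Its DMSO values lay above the dTAG values and overlapped the dTAG+I-BET values. KRT6C had 223 to 441 per kb, KRT6A 215 to 389, KRT5 137 to 301, KRT2 162 to 224, KRT1 91.9 to 281 and KRT77 114 to 291, and these ranges overlapped. KRT6A, KRT6B and KRT6C are near-identical copies, so that reads could have been split between them, which was not tested. Among the downstream genes ATG101 was the highest, with 304, 312 and 379 per kb in dTAG+I-BET libraries, 227, 315 and 251 per kb in dTAG libraries and 336, 366 and 236 per kb in DMSO libraries, all of them overlapping. SMIM41 had 179 to 312 per kb, NR4A1 239 to 349, TAMALIN 198 to 301, ACVR1B 141 to 160, ACVRL1 89.2 to 125, ANKRD33 63.6 to 129, FIGNL2 46.2 to 65.0 and SCN8A 31.4 to 45.8. TMDD1, covered over 1.00 kb, was at 0 in 3 libraries.

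**Figure D3:**
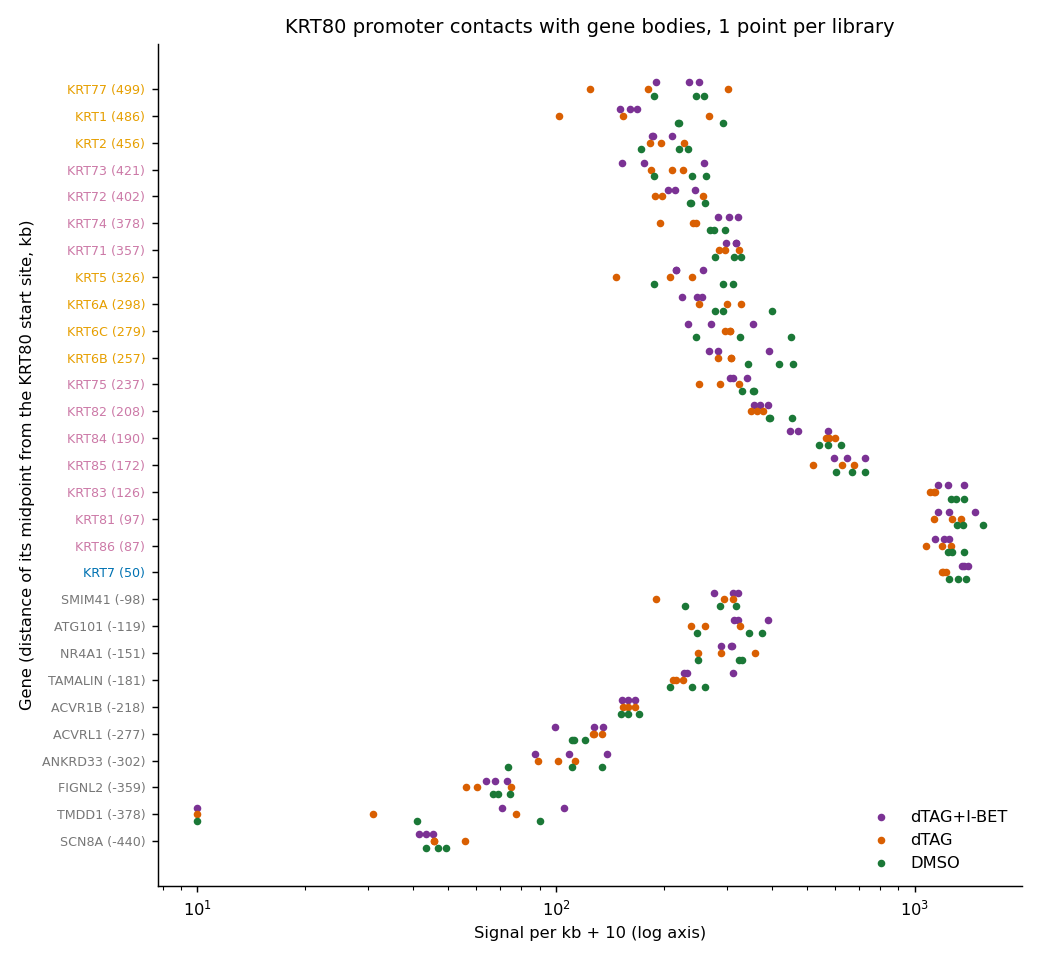
Signal per kb plus 10 between the KRT80 promoter and the bodies of 29 genes, on a log axis, 1 point per library, with genes ordered from the farthest upstream at the top to the farthest downstream at the bottom. KRT7, KRT86, KRT81 and KRT83 lie above 1000 per kb in all 9 libraries, and the highest value of any downstream gene is 379 per kb.

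Whether contacts changed after Mediator was depleted was tested with limma on log2(value + 1), fitted over all 20 viewpoints. None of the 98 KRT80 bins passed an adjusted p of 0.05 in dTAG against DMSO, where 1.58% of all 1960 bins did. With the p unadjusted 3 KRT80 bins were under 0.05, against 13.3% of all bins. By edgeR on the recovered interactions 0 KRT80 bins were called and 4 were under 0.05 unadjusted. For edgeR no share over all features is given here or below, so its counts cannot be set against the limma percentages. The fitted log2 ratio was below 0 in 40 of 49 upstream bins (median -0.13) and in 32 of 49 downstream bins (median -0.05), with a median of -0.07 over all 1960 bins and 60.2% of them below 0. The groups did not overlap in 11 KRT80 bins, all lower in dTAG, against 16.3% of all bins. Fitted ratios ran from -0.69 to 0.49.

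In dTAG+I-BET against DMSO, 1 of 98 KRT80 bins passed, where 4.9% of all bins did. It was lower, a direction in which 1.43% of all bins passed. By limma 4 KRT80 bins had an unadjusted p under 0.05 (15.8% of all bins), and edgeR called the same bin with 5 under 0.05 unadjusted. It lay 280 to 290 kb upstream, at 52472014 to 52482013, and covers part of KRT6C and the sequence between KRT6C and KRT6A. It had 162, 161 and 147 per kb in dTAG+I-BET libraries, 205, 211 and 183 per kb in dTAG libraries and 252, 238 and 248 per kb in DMSO libraries. The 3 groups did not overlap, with dTAG+I-BET lowest and DMSO highest. The log2 ratio of dTAG+I-BET to DMSO was -0.65 (95% interval -1.01 to -0.28, limma adjusted p = 0.034), and that of dTAG to DMSO was -0.30 (-0.66 to 0.06, adjusted p = 0.483). The bin held a mean of 72.2 interactions per library. The call was lost when any of the 6 dTAG+I-BET or DMSO libraries was left out (adjusted p 0.0735 to 0.145, log2 -0.67 to -0.60), and no bin was called with bins of 5 kb or of 25 kb.

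The neighbours of this bin toward KRT6A, at 290 to 310 kb, also had dTAG+I-BET values below all DMSO values, with means of 208 and 217 per kb in dTAG+I-BET against 265 and 294 per kb in DMSO. Neither passed (adjusted p = 0.361 and 0.209). The neighbour on the other side, at 270 to 280 kb and over most of KRT6C, averaged 253 per kb in dTAG+I-BET and 253 per kb in DMSO, with a log2 ratio of 0.01 (95% interval -0.37 to 0.40). The groups did not overlap in 16 KRT80 bins, 10 of them lower in dTAG+I-BET, against 26.3% of all bins. The fitted ratio was below 0 in 35 of 49 upstream bins (median -0.09) and in 24 of 49 downstream bins (median 0.01), against 47.8% of all bins. No KRT80 bin passed in dTAG+I-BET against dTAG, nor did any of the 1960 bins (0.0%). With the p unadjusted, 3 KRT80 bins were under 0.05 by limma (6.22% of all bins) and 2 by edgeR, which called none. The groups did not overlap in 8 KRT80 bins, against 13.9% of all bins, and the fitted ratio was below 0 in 41 of 98, against 34.3% of all bins.

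**Figure D4:**
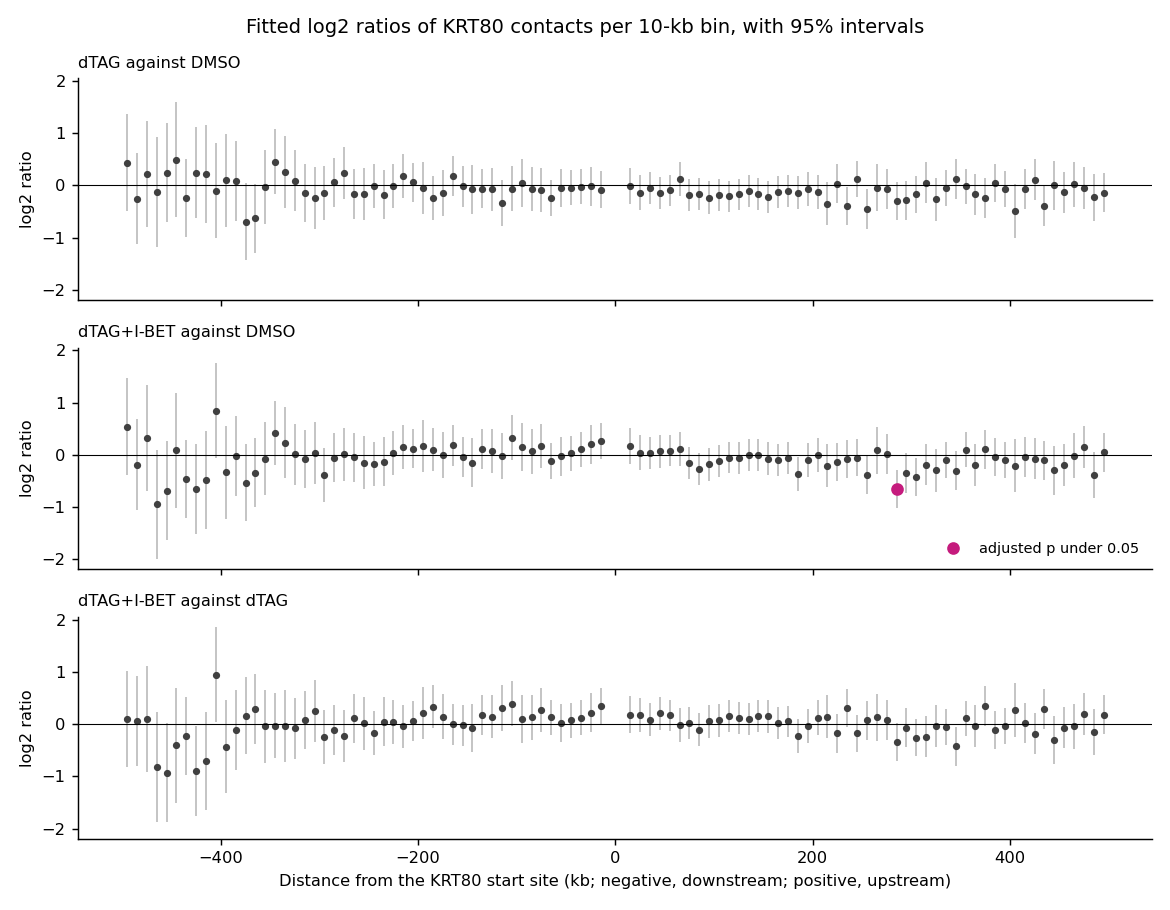
Fitted log2 ratio of KRT80 contacts in each of 98 bins of 10 kb against distance from the start site, with 95% intervals, for dTAG against DMSO, dTAG+I-BET against DMSO and dTAG+I-BET against dTAG from top to bottom. The 1 bin with an adjusted p under 0.05, at 280 to 290 kb upstream and -0.65, is in the middle panel, and intervals are widest beyond 350 kb downstream.

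Of the bins with the 3 largest increases and decreases in each comparison, those more than 340 kb downstream, over SCN8A, TMDD1 and FIGNL2, were sparse, with 10.4 to 23.9 interactions per library. The others lay at 400 to 410 kb upstream over KRT72 (-0.48 in dTAG against DMSO, and -0.15 without dTAG replicate 1), at 100 to 110 kb downstream over SMIM41 and at 370 to 380 kb upstream over KRT74 (0.39 and 0.35 in dTAG+I-BET against dTAG). The largest decreases were -0.69 in dTAG against DMSO (370 to 380 kb downstream) and -0.95 in dTAG+I-BET against DMSO (460 to 470 kb downstream, and -0.50 without dTAG+I-BET replicate 2). The largest increases were 0.49 and 0.84 (440 to 450 and 400 to 410 kb downstream). None of these passed the test. The extremes in dTAG+I-BET against dTAG were -0.93 and 0.95, in the bins at 450 to 460 and 400 to 410 kb downstream.

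No gene body of the 30 measured around KRT80 passed in any comparison, where 1.16%, 2.31% and 0.0% of the 173 gene bodies of all viewpoints did in dTAG against DMSO, dTAG+I-BET against DMSO and dTAG+I-BET against dTAG. Unadjusted p-values were under 0.05 for 4, 2 and 3 of the 30 by limma (9.25%, 17.3% and 8.09% of all 173) and for 2, 2 and 3 by edgeR, which called none. In dTAG against DMSO the fitted ratio was below 0 for 18 of 19 keratin genes other than KRT80 (median -0.17) and for 8 of 10 other genes (median -0.06), against a median of -0.05 over all 173, of which 60.1% were below 0. The hair list had 10 of 11 below 0 with a median of -0.17, and the epidermal list 7 of 7 with a median of -0.29. Of the keratin genes 16 of 19 were below 0 in dTAG+I-BET against DMSO (median -0.13) and 3 of 10 other genes (median 0.09), against a median of 0.01 over all and 47.4% below 0. Of these 19 genes 6 were below 0 in dTAG+I-BET against dTAG (median 0.05) and 3 of 10 other genes (median 0.13), against a median of 0.09 over all and 29.5% below 0. Neighbouring genes share libraries and position, so that these counts are a description.

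KRT7 had a log2 ratio of -0.13 in dTAG against DMSO (95% interval -0.27 to 0.02, adjusted p = 0.628), 0.06 in dTAG+I-BET against DMSO (-0.08 to 0.21, adjusted p = 0.735) and 0.19 in dTAG+I-BET against dTAG (0.05 to 0.34, adjusted p = 0.329). The contrasts share libraries. KRT6B had -0.45 in dTAG against DMSO (adjusted p = 0.415) and -0.40 in dTAG+I-BET against DMSO (adjusted p = 0.288). KRT81 had -0.17 and -0.13 in the same comparisons (adjusted p = 0.719 in both), and ATG101 -0.23 and 0.10 (adjusted p = 0.762 and 0.945). KRT74, a root sheath keratin, had the lowest unadjusted p of the 30 in dTAG+I-BET against dTAG (log2 0.43, adjusted p = 0.327). It had 311, 293 and 273 per kb in dTAG+I-BET libraries, 185, 231 and 236 per kb in dTAG libraries and 259, 265 and 286 per kb in DMSO libraries. The DMSO values lay above all dTAG values and overlapped those of dTAG+I-BET. KRT74 was singled out after its values were seen.

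The part of the KRT80 body more than 10 kb from the start had 4136, 4404 and 4379 per kb in dTAG+I-BET libraries, 3936, 3782 and 2744 per kb in dTAG libraries and 3779, 3685 and 3391 per kb in DMSO libraries. The dTAG+I-BET values lay above those of both other groups. Over all viewpoints, groups did not overlap in 49 of 173 gene bodies against DMSO and in 33 against dTAG. The log2 ratio of dTAG+I-BET to DMSO was 0.25 (adjusted p = 0.443). Its adjusted p was 0.021 when dTAG replicate 3, which stood apart, was left out, and 0.047 when only both groups compared were fitted. The ratio stayed at 0.25 under both settings, as that library is in neither group of this comparison. The shares of all features called under these settings are not given. The bin at 10 to 20 kb downstream, which lies in the same stretch, was also called under both settings (0.26, adjusted p = 0.0056 and 0.0095). Without that library the bands at 10 to 50 kb downstream (0.19, adjusted p = 0.049) and 250 to 500 kb upstream (-0.15, adjusted p = 0.044) also passed in dTAG+I-BET against DMSO. At 10 to 50 kb upstream the dTAG+I-BET values of 2345, 2328 and 2418 per kb also lay above the DMSO values of 2310, 2134 and 2165 per kb. The log2 ratio there was 0.10 (limma adjusted p = 0.658 with all libraries).

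With all libraries none of the 8 bands of distance on either side passed by limma in any comparison, where 5.62%, 10.0% and 0.0% of 160 bands did, and none had an unadjusted p under 0.05 by limma or edgeR, where 16.9%, 23.1% and 8.75% of the 160 did by limma. The fitted ratios were -0.15 to -0.01 in dTAG against DMSO, -0.15 to 0.19 in dTAG+I-BET against DMSO and -0.08 to 0.24 in dTAG+I-BET against dTAG. The whole upstream side differed by -0.11 in dTAG against DMSO (95% interval -0.33 to 0.10, adjusted p = 0.645) and by -0.04 in dTAG+I-BET against DMSO (-0.26 to 0.18, adjusted p = 0.883). The downstream side differed by -0.05 (-0.30 to 0.20, adjusted p = 0.871) and 0.12 (-0.13 to 0.37, adjusted p = 0.736). In dTAG+I-BET against dTAG the upstream side differed by 0.07 (-0.14 to 0.29, adjusted p = 0.563) and the downstream side by 0.16 (-0.09 to 0.41, adjusted p = 0.418). Of all 40 sides 5.0%, 7.5% and 0.0% passed.

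The ratio of upstream to downstream contacts, which does not depend on the scaling of a library, changed by -0.06 in dTAG against DMSO (log2, exact two-sided permutation p = 0.5), by -0.16 in dTAG+I-BET against DMSO (p = 0.1, exact permutation) and by -0.09 in dTAG+I-BET against dTAG (p = 0.4, exact permutation). With 3 libraries against 3 the smallest p this test can give is 0.1. The test is unpaired. Replicate 3 had the highest ratio in DMSO (1.17) and in dTAG (1.11), and the test counts this as spread within groups. Leaving out only 1 of these 2 libraries shifts the change. The ratios by replicate number are given at the end, and a paired test was not run. Without DMSO replicate 3 the change was 0.02 in dTAG against DMSO and -0.07 in dTAG+I-BET against DMSO, and without dTAG replicate 3 it was -0.0043 in dTAG+I-BET against dTAG. In dTAG+I-BET against DMSO the 3 ratios of 0.86, 0.85 and 0.82 in dTAG+I-BET lay below those of 0.94, 0.89 and 1.17 in DMSO. In dTAG against DMSO 15 of the 19 other promoters changed by more in size, within a range of -0.99 to 0.01 over all 20.

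Cohesin-lost sites, widened by 5 kb on both sides and merged, formed 4 windows around KRT80. The window at 25 to 44 kb, which reaches into KRT7, had 1664, 1583 and 1581 per kb in dTAG+I-BET libraries, 1644, 1529 and 1313 per kb in dTAG libraries and 1667, 1530 and 1622 per kb in DMSO libraries, and the groups overlapped. The window at 149 to 159 kb, before KRT85, had 821, 750 and 758 per kb in dTAG+I-BET libraries, 748, 703 and 623 per kb in dTAG libraries and 820, 761 and 795 per kb in DMSO libraries, with all dTAG values below the others. The window at 244 to 256 kb holds the sites at 249 kb (printed above) and 251 kb and reaches into KRT6B. It had 293, 274 and 279 per kb in dTAG+I-BET libraries, 339, 311 and 268 per kb in dTAG libraries and 393, 294 and 303 per kb in DMSO libraries. There the highest dTAG+I-BET value lay just below the lowest DMSO value.

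The farthest window, at 300 to 310 kb, reaches into KRT6A, covers nearly the same stretch as the bin at 300 to 310 kb above, and had 221, 204 and 202 per kb in dTAG+I-BET libraries, 251, 276 and 225 per kb in dTAG libraries and 308, 242 and 298 per kb in DMSO libraries. All dTAG+I-BET values lay below all others. Its log2 ratio of dTAG+I-BET to DMSO was -0.43 (95% interval -0.76 to -0.10, limma adjusted p = 0.070), with a median of 75 interactions per library. It passed after rescaling to equal totals, in a fit of only both groups, and without dTAG replicate 3 (adjusted p = 0.042, 0.048 and 0.031). The shares of all windows that passed under these settings are not given. With the fit as used for all other values, none of the 4 windows passed in any comparison, where 8.85%, 13.3% and 0.0% of 113 windows did. Unadjusted p-values were under 0.05 for 0, 1 and 0 of the 4 by limma and by edgeR, which called none, where 23.0%, 30.1% and 6.19% of the 113 were by limma. The share of the 113 windows whose groups did not overlap is not given, so separations named for single windows are only a description. The ratios of the 4 windows were -0.20 to -0.10 in dTAG against DMSO, with a median of -0.19 over the 113 windows, and -0.43 to 0.00 in dTAG+I-BET against DMSO, with a median of -0.15 over all.

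**Figure D5:**
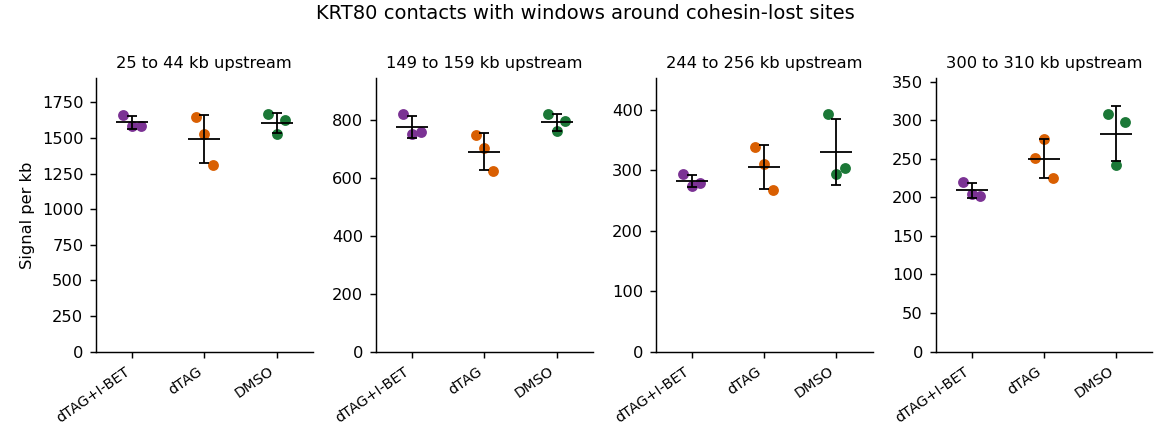
Signal per kb of the KRT80 promoter with each of 4 windows around cohesin-lost sites, with 1 point per library and the mean and SD of each group in black, all axes starting at 0. In the farthest window the dTAG+I-BET libraries are at 202 to 221 per kb, below 225 to 276 per kb in dTAG and 242 to 308 per kb in DMSO.

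Summed over the 4 windows, the signal was 888, 836 and 838 per kb in dTAG+I-BET libraries, 883, 830 and 714 per kb in dTAG libraries and 930, 831 and 886 per kb in DMSO libraries. The groups overlapped. The log2 ratio was -0.13 in dTAG against DMSO (95% interval -0.36 to 0.10, adjusted p = 0.363), -0.05 in dTAG+I-BET against DMSO (-0.27 to 0.18, adjusted p = 0.804) and 0.08 in dTAG+I-BET against dTAG (-0.15 to 0.31, adjusted p = 0.999), where 0.0%, 5.26% and 0.0% of 19 promoters passed. In dTAG against DMSO it was -0.04 without dTAG replicate 3 and -0.19 without dTAG replicate 1. The window at 25 to 44 kb weighs most in this sum, with 1011 of its 1537 interactions in DMSO replicate 1. The log2 ratios of that window alone were -0.11 in dTAG against DMSO and 0.0031 in dTAG+I-BET against DMSO. In dTAG+I-BET against dTAG its ratio was 0.11. Of the 19 promoters with such sites 17 had a ratio below 0 in dTAG against DMSO, and 12 of them were lower than KRT80. Distances of the windows were not matched between promoters, here or for KRT19 below. Relative to the mean of the other 18 promoters in the same library, KRT80 stood at 0.33, 0.23 and 0.19 in dTAG+I-BET, 0.23, 0.19 and 0.26 in dTAG and 0.19, 0.09 and 0.30 in DMSO on the log2 scale. The difference was 0.03 in dTAG against DMSO (exact two-sided permutation p = 0.7), 0.05 in dTAG+I-BET against DMSO (p = 0.5, exact permutation) and 0.02 in dTAG+I-BET against dTAG (p = 0.8, exact permutation).

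KRT19, a type I keratin gene on another chromosome and also among the 20 promoters, had 479, 477 and 439 per kb at its own cohesin-lost windows in dTAG+I-BET libraries, 471, 438 and 486 per kb in dTAG libraries and 463, 490 and 466 per kb in DMSO libraries. Its log2 ratios were -0.03 in both comparisons with DMSO (adjusted p = 0.800 and 0.837). The KRT80 value minus the KRT19 value changed by -0.10 in dTAG against DMSO (log2, exact two-sided permutation p = 0.5) and by -0.02 in dTAG+I-BET against DMSO (p = 0.9, exact permutation).

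The 5 fragments of highest signal per kb were set by few interactions, 10.3 to 20.7 per library. The groups overlapped in 4 of them. At the fragment 83.6 kb away, in a KRT86 intron, the values were 3600, 2262 and 2145 per kb in dTAG+I-BET libraries, 4379, 2991 and 2566 per kb in dTAG libraries and 6014, 3721 and 6704 per kb in DMSO libraries. There all dTAG+I-BET values lay below all DMSO values, and single fragments were not tested. The KRT7 intron fragment had 4032, 4637 and 4452 per kb in dTAG+I-BET libraries, 3232, 4869 and 7101 per kb in dTAG libraries and 5548, 3277 and 4123 per kb in DMSO libraries. The KRT87P fragment had 2151 to 6636 per kb over the 9 libraries and the KRT88P fragment 1375 to 6308 per kb. The related exon copies in KRT86, KRT83 and KRT85, at 113, 125 and 171 kb, averaged 2427, 2804 and 1889 per kb, against 4590 and 3913 per kb for the KRT87P and KRT88P copies at 61.7 and 74.6 kb. Short fragments had more signal per kb in general. From 50 to 130 kb upstream, 103 fragments under 150 bases had a median of 2657 per kb, 86 of 150 to under 500 bases had 1735 per kb and 54 of 500 bases or more had 885 per kb, so that levels of single fragments compare only with fragments of like length.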

How the data were processed

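Contacts were measured in 9 Capture-C libraries (n = 3 per group), with chromatin cut by DpnII. Per the study's methods, the authors counted interactions per fragment with CapCruncher on hg38. Each deposited signal value equals an interaction count times 1 factor per viewpoint and library. The factor was taken as the smallest value above 0 of a column. All 102057804 values, zeros included, were whole multiples of it (tolerance 0.01). Zeros and the smallest value itself pass by construction. Interactions were recovered by dividing by the factor. Fragments of the captured stretch (52191421 to 52193474) were left out. The printed fragments are flanked by GATC in the hg38 reference used.

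Fragments were assigned by midpoint to bins of 10 kb (mean of at least 2 per kb), gene bodies with at least 1 kb, bands and sides at 10 to 500 kb, and windows around cohesin-lost sites. The test was limma 3.58.1 on log2(signal per kb + 1) in R 4.3.3, with all 9 libraries and Benjamini-Hochberg adjustment over all viewpoints (1960 bins, 173 genes, 160 bands, 113 windows, 40 sides and 19 sets of windows). Ratios within a library had an exact permutation test. The code was tested on simulated data. Named bins were those called, the 3 highest beyond 50 kb on each side and the 3 largest changes each way in each comparison. Named genes were all protein-coding genes in lists by keratin class, with values in every library for KRT7, the highest of each list and called genes. All cohesin-lost sites and the 5 highest fragments with at least 10 interactions were named. Members and lists were chosen with earlier results of these data known. The fits of single windows were added after seeing the data. Alternatives were rescaling, a replicate block, pseudocounts of 0.5 and 5, edgeR 4.0.16 on recovered interactions, other bin sizes and minimums, windows of 2.5 and 10 kb, an inner edge of 25 kb, start sites in place of gene bodies, fits of only 2 groups and leaving out each library.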

Additional observations from a re-analysis of the deposited data

How the results depend on the processing

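With no library left out, these values changed. The downstream side in dTAG against DMSO was 0.022 on the log2 scale (-0.049 as reported) after rescaling to equal totals. Bins called in dTAG+I-BET against DMSO numbered 2 with only both groups fitted and 0 with bins of 5 or of 25 kb, against 1 as reported. Gene bodies called there numbered 1 (KRT80 itself) with only both groups fitted, against 0 as reported. ATG101 in dTAG+I-BET against DMSO was -0.016 in 10 kb around its start site (0.10 over its body). KRT81 and KRT6B in dTAG+I-BET against dTAG were -0.013 and -0.0078 after rescaling (0.046 and 0.051 as reported). The shares of all features called under such settings are not given. Leaving out 1 library at a time gave 0 to 2 bins, 0 to 1 gene bodies and 0 to 2 bands called in dTAG+I-BET against DMSO. In dTAG against DMSO it moved the downstream side within -0.12 to 0.085, the upstream to downstream ratio within -0.15 to 0.021, the cohesin-lost windows minus the other promoters within -0.021 to 0.087, the window at 244 to 256 kb within -0.18 to 0.028 the cohesin-lost windows within -0.19 to -0.042, the bin at 400 to 410 kb upstream within -0.72 to -0.15 and the bin at 440 to 450 kb downstream within -0.24 to 0.89. In dTAG+I-BET against DMSO it moved the upstream to downstream ratio within -0.21 to -0.071, the bin at 460 to 470 kb downstream within -1.46 to -0.50, the window at 25 to 44 kb within -0.032 to 0.030 and ATG101 within -0.087 to 0.23. In dTAG+I-BET against dTAG it moved the cohesin-lost windows within -0.0035 to 0.15, these minus the other promoters within -0.019 to 0.052, KRT81 within -0.052 to 0.12 and KRT6B within -0.12 to 0.16. The cause of these shifts was not tested.

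With the replicate number as a block, the call at 280 to 290 kb stayed (log2 -0.65, adjusted p = 0.034) and no other call changed. Deviations of libraries with the same number correlated at -0.064 to 0.23 over all bins in 9 pairs. Over the KRT80 bins the correlation was 0.050, 0.18 and 0.39 between dTAG and DMSO, -0.19, -0.30 and -0.26 between dTAG+I-BET and DMSO, and -0.035 to 0.078 between dTAG+I-BET and dTAG. The sources used here do not say that a number marks a shared day or batch. The correlation was not above 0.1 in every pair, so the libraries were not treated as paired. Between dTAG and DMSO it was above 0 in every pair. There the log2 ratio of upstream over downstream contacts was, by number, 0.86, 0.83 and 1.11 in dTAG and 0.94, 0.89 and 1.17 in DMSO. This ratio was lower in dTAG at each number, and a paired test of it was not run. Depth limits what can be seen, and 95% intervals of a bin reached a median of 0.36 upstream and 0.47 downstream to either side on the log2 scale.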
